A study of Mus musculus with 2 samples.

Results

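Forkhead factors of the FOXO, FOXP and FOXK families, together with Foxn3, Foxj2 and Foxj3, were followed in total RNA from mouse hematopoietic stem cells (HSC). The members were 10 named genes, Foxo1, Foxo3, Foxo4, Foxp1, Foxp4, Foxk1, Foxk2, Foxn3, Foxj2 and Foxj3, out of 43346 gene identifiers in the deposited tables, and all 10 were found by symbol. The tables held 34 other forkhead genes. The samples were 1 group of 2 biological replicates, HSC of male C57BL/6J mice aged 5 to 6 weeks with no treatment or mutation recorded. Each library was made from 100 ng of RNA after removal of ribosomal RNA. The labels record a single donor and strain entry for both samples, and the sources used here do not give the sorting gate. The spread between the replicates may therefore be technical in part. With 2 replicates of 1 group no comparison of conditions exists, and an exact sign-flip permutation test between the replicates cannot go below a p of 0.5, so no test was made.

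Forkhead proteins bind DNA through a winged-helix domain, in which 1 helix, the recognition helix, enters the major groove. FOXO proteins are the nuclear end of insulin and growth factor signalling: AKT phosphorylates them, 14-3-3 proteins hold the phosphorylated forms in the cytoplasm, and when AKT is quiet they return to the nucleus and activate genes of cell cycle arrest, antioxidant defence and autophagy. FOXO factors, Foxo3 above all, are known for keeping blood stem cells quiescent and low in reactive oxygen. FOXP proteins are mostly repressors that pair through a leucine zipper, and FOXK proteins carry a forkhead-associated domain and bring the Sin3 corepressor to genes of autophagy and metabolism.

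The recognition helix is shown because it is the segment by which these proteins read DNA; it does not by itself separate the families, and 8 members are shown. The codons of 10 residues, 30 bases read 5′ to 3′ from GENCODE M21 transcripts (mouse, GRCm38), are given with capitals at the bases that differ from Foxo3.
Foxo3: tggaagaactccatccggcacaacctgtcc
Foxo4: tggaagaactccatccgTcacaacctgtcc
Foxp4: tggaagaaTGccGtGcgCcacaacctCAGc
Foxk1: tggCagaactcTatccgAcacaacctCtcT
Foxk2: tggCagaaTtcAatTcgCcacaaTctCtcT
Foxn3: tggaagaactcAGtGAgAcacaacTtgtcA
Foxj2: tggaagaaTtccatTcgAcacaacctTtcc
Foxj3: tggaagaaTtcTatAcgAcaTaaTctgtcA
Foxo4 differed from Foxo3 at 1 base, which did not change the residue. Foxj2, with 4 differing bases, and Foxj3, with 7, also kept all residues of the Foxo3 helix. In Foxk1 (5 bases) and Foxk2 (8 bases) the same number of codons, 1, changed the residue, as 1 did in Foxn3 (7 bases). Foxp4 differed at 8 bases, and 2 codons changed the residue. Over a window of 95 residues around the helix Foxo4 matched Foxo3 at 83.2%, against 40.2% for Foxp4 and 43.2% for Foxk1. Each percentage is of the residues aligned without a gap, which can be fewer than 95. Within families, Foxk1 and Foxk2 shared 91.6% of this window, and Foxj2 and Foxj3 73.7%.

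Replicate 1 held 27901074 estimated counts and replicate 2 held 48490188, and 81.5% and 86.6% of these fell on protein-coding genes. Levels are given in TPM, which divides each transcript's count by its usable length and scales the sum over all features to the same total in each library. Protein-coding genes held 16.3% of the TPM in replicate 1 and 20.3% in replicate 2. Across detected protein-coding genes the median log2 ratio of replicate 2 over replicate 1 was 0.29 in TPM, and it was -0.023 once TPM was rescaled over protein-coding genes, so a ratio near 0.29 is the middle of the table. Of 15 HSC genes 14 were at 1 TPM or more in both libraries, and Slamf1 (0.42 and 0.43 TPM) was not. The HSC genes summed to 461 TPM in replicate 1 and 549 in replicate 2. Genes of other blood cells were also present: all 12 neutrophil genes were detected, with a summed level of 3117 TPM in replicate 1 and 1171 in replicate 2, and erythroid genes summed to 132 and 263 (7 of 12 detected). Monocyte genes summed to 378 and 178 (5 of 10), megakaryocyte genes to 18.9 and 25.4 (4 of 8), T and NK cell genes to 15.0 and 14.3 (3 of 10) and B cell genes to 5.80 and 4.19 (1 of 10). Among the B cell genes Cd79b was at 4.89 and 3.25 TPM, from 442 and 432 counts, and Blnk at 0.67 and 0.71, while Pax5, Cd22 and Igll1 had no count in either library. These marker sums move between the same 2 libraries as every value below, and their part in the levels of the forkhead genes was not tested.

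Of the 10 forkhead members 9 were detected, meaning at least 1 TPM in both libraries, where 44% of 21474 protein-coding genes were. The members were chosen with earlier results of these data known, so their share cannot be read as a trait of forkhead genes. Foxp1 and Foxo3 stood highest, Foxn3, Foxj3 and Foxk2 followed, and Foxo1 alone lay below the threshold. Each value comes with its replicate SD (n = 2) or with the interval the authors deposited for each library. That interval covers the uncertainty of the estimate and not the spread between animals. Of the 20 member TPM values 19 lay inside it. Foxp1 in replicate 1, at 13.69 TPM, lay just under its interval of 13.7 to 15.1. In bulk RNA a lower level in each cell and a smaller number of expressing cells cannot be told apart.

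**Figure D1:**
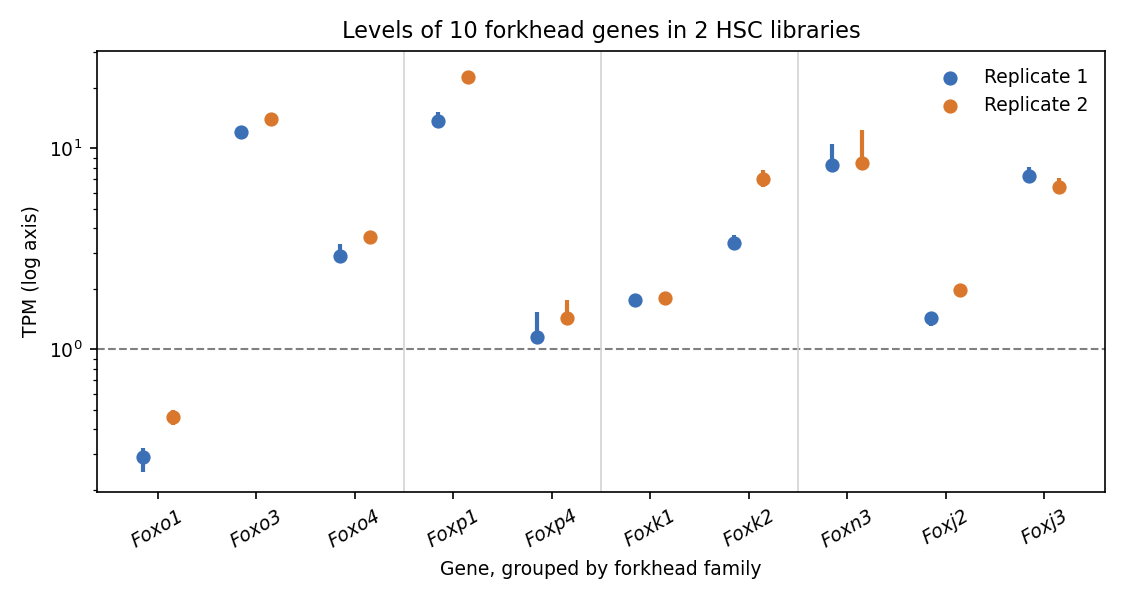
TPM of the 10 forkhead genes on a log axis, grouped by family, with replicate 1 in blue and replicate 2 in orange; vertical lines are the deposited intervals and the dashed line marks 1 TPM. Foxp1 and Foxo3 lie above 10 TPM in both libraries, and Foxo1 is the only gene under the dashed line.

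The FOXO genes spread over the widest range of any family here. Foxo3 (ENSMUSG00000048756, chr10:42181841-42276755, minus strand, GRCm38), the FOXO factor best known in blood stem cells, was at 12.03 TPM in replicate 1 and 13.97 in replicate 2, from 6853 and 11554 counts. Foxo4 (chrX:101254528-101260873, plus strand), a close relative under the same AKT control, was at 2.91 and 3.62 TPM, from 747 and 1371 counts. Foxo1 (ENSMUSG00000044167, chr3:52268336-52353221, plus strand), the FOXO factor known for liver glucose output and lymphocyte development, was at 0.29 and 0.46 TPM, from 210 and 505 counts. The 3 genes did not overlap, and their order was the same in both libraries.

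Foxo3 exceeded Foxo4 by 1.97 ± 0.065 on the log2 scale, with deposited intervals apart in each library. Foxo4 exceeded Foxo1 by 2.84 ± 0.15, or 7.16-fold. The counts of Foxo1 lay well above the limit that a count of 0 allows, which is 3 counts, or 0.108 CPM (counts scaled to the library total, with no division by length) in replicate 1 and 0.0619 in replicate 2; its level was 7.53 and 10.4 CPM. Rescaled over protein-coding genes, Foxo3 was at 73.8 and 68.9 TPM and Foxo1 at 1.78 and 2.27. Gm38034, an unclassified transcript within Foxo1 on the same strand, held 68 and 77 counts of its own.

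Both FOXP members were detected, far apart in level. Foxp1 (chr6:98925338-99522721, minus strand), a repressor needed for early B cell development, was at 13.69 TPM in replicate 1 and 22.51 in replicate 2, from 5707.37 and 9734.1 counts. Foxp4 (chr17:47867133-47924645, minus strand), which can pair with Foxp1, was at 1.15 and 1.43 TPM, from 324 and 502 counts. Foxp1 exceeded Foxp4 by 3.67 ± 0.30 on the log2 scale, or 12.8-fold, and the intervals of the 2 genes were apart in each library. Foxp1 shares its locus with Gm20696, an overlapping protein-coding gene on the same strand that held 385.36 and 165.9 counts, so reads in their common part can be split between them. Of the other FOXP genes, Foxp2 was at 0.06 and 0 TPM and the regulatory T cell factor Foxp3 at 0.04 and 0.05.

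Foxk1 and Foxk2, the Sin3-binding FOXK genes, differed in how close the libraries were. Foxk1 (chr5:142401497-142462011, plus strand) was at 1.76 and 1.80 TPM, from 1103 and 1686 counts, a log2 ratio of replicate 2 over replicate 1 of 0.031, the smallest in absolute size among the members on TPM; on TPM rescaled over protein-coding genes it was -0.28. Foxk2 (chr11:121259990-121309896, plus strand) was at 3.37 TPM in replicate 1 and 7.07 in replicate 2, from 1316 and 2848 counts. Foxk2 lay above Foxk1 in both libraries, by 1.41 ± 0.72 on the log2 scale or 2.65-fold. Between the replicates Foxk2 moved more than Foxk1 on TPM. On rescaled TPM the ratio of replicate 2 over replicate 1 was 0.75 for Foxk2 beside -0.28 for Foxk1, so both genes entered the spread.

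The remaining members belong to smaller families. Foxn3 (chr12:99190078-99563582, minus strand), a repressor first described as a checkpoint suppressor, was at 8.22 and 8.48 TPM, from 1600 and 2399 counts. Its leading transcript, Foxn3-201, was quantified at 2803 nt but is 7705 nt long in GENCODE M21. TPM divides by length, and the effect of this difference on the level and rank of Foxn3 was not tested. Foxj3 (chr4:119537004-119629119, plus strand), an activator with known roles in muscle and germ cells, was at 7.28 and 6.40 TPM, from 2027 and 3481 counts, and was the only member with a lower TPM in replicate 2. Foxj2 (chr6:122819914-122845366, plus strand), its relative, was at 1.44 and 1.98 TPM, from 566 and 1127 counts. Foxj3 exceeded Foxj2 by 1.95 ± 0.44 on the log2 scale, with intervals apart in each library. Frg2f1, on the strand opposite Foxj3, held 156 and 72 counts, and the sources used here do not state whether counting used strand.

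Ordering all 10 genes, 39 of 45 pairs kept 1 direction in both libraries with intervals apart in each, where 80.6% of all pairs of detected protein-coding genes did. The 45 pairs are not a like set, because they include those of Foxo1, which was not detected and whose pairs were all ordered. From the top the order was Foxp1, Foxo3, Foxn3, Foxj3, Foxk2, Foxo4, Foxk1, Foxj2, Foxp4 and Foxo1. On TPM 4 of the 9 neighbouring steps were resolved: Foxp1 over Foxo3, Foxo3 over Foxn3, Foxo4 over Foxk1 and Foxp4 over Foxo1. Foxn3, Foxj3, Foxk2 and Foxo4 formed a chain of neighbours that did not separate, and Foxk1, Foxj2 and Foxp4 did not separate from each other at all. Foxj3 exceeded Foxk2 by 1.09 on the log2 scale in replicate 1 but lay below it, at -0.14, in replicate 2.

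Of these 4 steps, Foxo3 over Foxn3 alone kept its direction in both libraries on CPM. Foxo4 was at 26.8 and 28.3 CPM, below Foxk1 at 39.5 and 34.8, a log2 ratio of -0.43. Foxp4 exceeded Foxo1 in replicate 1 and not in replicate 2, where they were at 10.35 and 10.41 CPM. The step at the top of the order also depended on the scale. On TPM Foxp1 exceeded Foxo3 by 0.43 ± 0.35 on the log2 scale. On CPM Foxo3 was at 246 and 238 CPM and Foxp1 at 205 and 201, a log2 ratio of Foxp1 over Foxo3 of -0.26. Counting only transcripts whose coding sequence holds the recognition helix, Foxp1 was at 11.03 and 13.17 TPM and Foxo3 at 11.97 and 13.55, a ratio of -0.079. The order of these 2 genes thus changed with the scale, while each stayed above the other 8 members on TPM.

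Foxk2 was the only member that stood apart between the replicates, by more than 2-fold with intervals apart; 8.61% of 9900 protein-coding genes with a mean of at least 1 TPM did so, and 6.54% with replicate 2 higher and 2.07% with replicate 1 higher. Its log2 ratio was 1.05. Foxp1 came next at 0.71 and Foxo1 at 0.52, and the other 7 ratios ran from -0.18 in Foxj3 to 0.43 in Foxj2. With library sizes scaled by TMM on the estimated counts, the Foxk2 ratio was 0.31 and the Foxp1 ratio -0.034, while Foxo1 kept 0.46. No member was then apart by 2-fold.

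**Figure D2:**
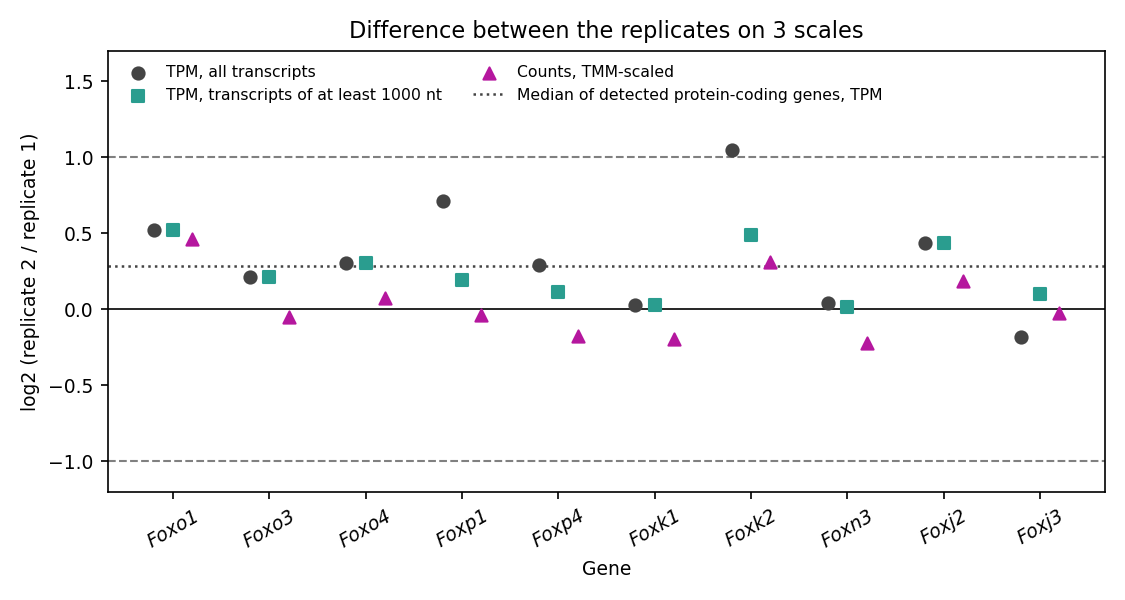
The log2 ratio of replicate 2 over replicate 1 for each of the 10 genes on TPM (black circles), on TPM of transcripts of at least 1000 nt (green squares) and on TMM-scaled counts (purple triangles); dashed lines mark 2-fold and the dotted line the TPM median of detected protein-coding genes, 0.29. Foxk2 passes 2-fold only on TPM over all transcripts, and Foxp1 falls from 0.71 to 0.20 on the longer transcripts.

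The transcript tables show where these ratios sat. Transcripts under 1000 nt, a bound chosen after the values were seen, held 7.10% of Foxk2 TPM in replicate 1 and 37.2% in replicate 2, yet only 0.464% and 3.17% of its counts. In Foxp1 they held 2.78% and 32.3% of TPM, from 15.01 and 271.67 counts, or 0.263% and 2.79% of its counts. On transcripts of at least 1000 nt Foxk2 was at 3.14 and 4.44 TPM, a log2 ratio of 0.49, and Foxp1 at 13.30 and 15.24, a ratio of 0.20. Foxj3 went the other way, with 18.1% of TPM in short transcripts in replicate 1 and 0% in replicate 2, and its long transcripts gave a ratio of 0.10 in place of -0.18. Over 7079 detected genes with more than 1 transcript the median share in short transcripts was 8.71% in replicate 1 and 5.87% in replicate 2, and the share was higher in replicate 2 in 2156 genes and in replicate 1 in 2483. The mean fragment length was 193 nt in replicate 1 and 245 in replicate 2, and its part in these shares was not tested.

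**Figure D3:**
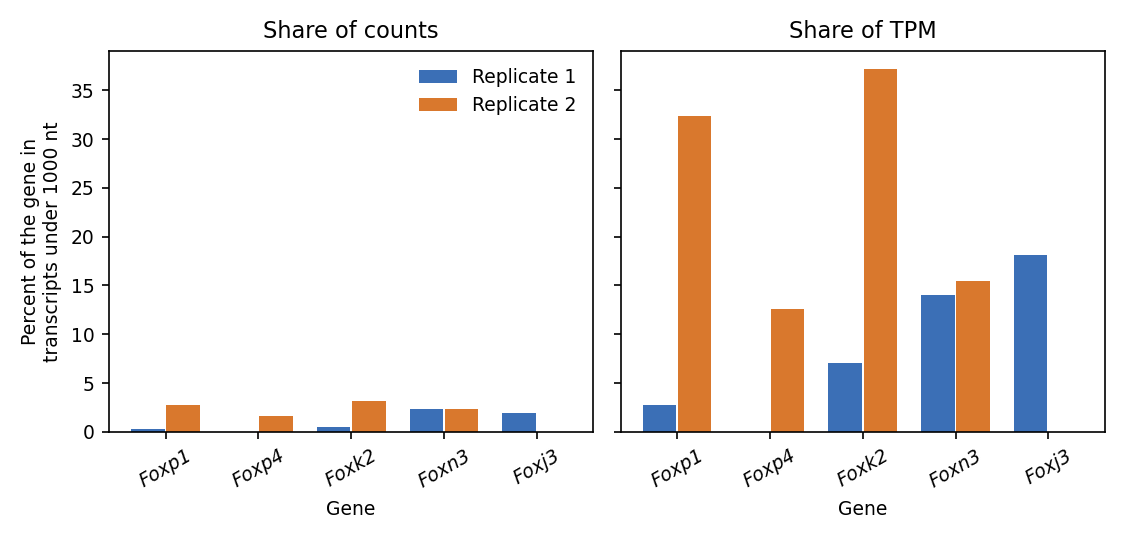
Percent of each gene's estimated counts (left) and of its TPM (right) in transcripts under 1000 nt, for the 5 members with any, in replicate 1 (blue) and replicate 2 (orange). In Foxp1 and Foxk2 the bars for replicate 2 reach 32.3% and 37.2% of TPM but 2.79% and 3.17% of counts.

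Foxk2 has 3 annotated transcripts. Foxk2-201, the coding transcript of 5029 nt, took 92.98% of the gene's TPM in replicate 1 and 62.8% in replicate 2. Foxk2-203, a noncoding transcript of 452 nt, took 5.27% and 24.14%, from 4 and 46.72 counts. Foxk2-202, a retained intron of 607 nt, took 1.75% and 13.06%. What sets Foxk2-203 apart is a block of 129 bases, its exon 2. Exon 5 of Foxk2-201 ends at position 121296222, and Foxk2-203 lacks that exon and has in its place the block that begins at the next base, with the first GT of the Foxk2-201 intron. It is shown because reads over it cannot come from spliced Foxk2-201, with capitals at that GT (chr11:121296223-121296351, plus strand, GRCm38).
Foxk2-203 exon 2: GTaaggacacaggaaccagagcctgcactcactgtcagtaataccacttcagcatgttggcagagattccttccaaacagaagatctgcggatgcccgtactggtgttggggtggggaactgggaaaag

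Foxp1 has 32 annotated transcripts and no single one dominated. Foxp1-206 led in both libraries with 38.92% and 21.04% of the gene's TPM, from 3145.47 and 4168.98 counts, followed by Foxp1-204 (20.7% and 19.07%) and Foxp1-228 (16.02% and 13.9%). Its own level was close in the 2 libraries, 5.33 and 4.74 TPM with overlapping intervals. Short transcripts held a larger share in replicate 2: Foxp1-223, of 341 nt, went from 0 to 12.86% on 0 and 41 counts, and Foxp1-218, of 607 nt, from 0 to 5.75% on 0 and 61 counts. Both are annotated as coding, but neither holds the recognition helix.

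Transcripts that begin within 500 nt of 3 RefSeq starts of Foxp1 were summed. The start of Foxp1-206 carried 48.5% of Foxp1 TPM in replicate 1 and 28.2% in replicate 2, at 6.64 and 6.34 TPM, whereas a start nearer the end of the gene carried 5.41% and 7.55% and the outermost start 0.80% and 5.02%. The other 45.2% and 59.3% began elsewhere. The windows of 300 bases at the first 2 of these starts are printed because they differ sharply in CpG dinucleotides, which are in capitals; they run from 250 bases before to 50 after the start, 5′ to 3′ on the minus strand, from RefSeq on GRCm38.p6.
Foxp1 start of Foxp1-206, chr6:99266466-99266765: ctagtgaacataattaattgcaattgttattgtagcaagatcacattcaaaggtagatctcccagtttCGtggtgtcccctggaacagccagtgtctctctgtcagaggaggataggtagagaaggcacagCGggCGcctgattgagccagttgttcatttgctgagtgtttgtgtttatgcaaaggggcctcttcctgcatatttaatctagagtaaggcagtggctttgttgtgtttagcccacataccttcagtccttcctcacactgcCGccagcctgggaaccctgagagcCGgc
Foxp1 inner start, chr6:99028249-99028548: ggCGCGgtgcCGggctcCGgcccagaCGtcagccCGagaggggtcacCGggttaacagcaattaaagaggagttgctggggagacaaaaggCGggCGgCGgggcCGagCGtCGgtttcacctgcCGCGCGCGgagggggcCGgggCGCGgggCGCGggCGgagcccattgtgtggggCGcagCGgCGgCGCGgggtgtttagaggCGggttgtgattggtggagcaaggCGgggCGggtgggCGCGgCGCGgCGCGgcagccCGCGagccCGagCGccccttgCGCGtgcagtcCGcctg
The start of Foxp1-206 held 5 CpG, the inner start 44 and the outermost start, not printed, 13. TPM was summed by the annotated starts of transcripts, so use of each start was not measured. The median was 7 CpG over all 32851 promoter entries and 21 over entries of detected genes. Of all entries 43.6% held 5 or fewer and 2.25% held 44 or more. A RefSeq entry was matched for 8 of the 10 members, with 10 entries in all, and none held the FOXO-type core TGTTTAC or its reverse complement GTAAACA on either strand, which 3.65% of all entries did.

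Of the 8 members with more than 1 transcript 7 had the same leading transcript in both libraries, where 75% of 7079 such genes did. Foxo3-203 held 98.77% and 95.53% of Foxo3, and Foxo4-201 held 100% of Foxo4 in each library. Foxn3-201 held 82.35% and 81.93%, with the short coding Foxn3-205 at 14.01% and 15.51%. Foxj2-202 held 82.07% and 97.58%, and Foxj2-201 the rest. Foxj3-201 led with 46.67% and 53.51%, Foxj3-202 followed with 12.28% and 32.78%, and the retained intron Foxj3-203 held 10.3% and 12.29%.

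Foxp4 was the exception. Foxp4-201 held 67.68% in replicate 1 and 0% in replicate 2, and Foxp4-202, which differs from it by 1 nt in length, held 0% and 44.74%. The deposited intervals of both transcripts overlapped between the libraries, and the posterior mean shares were 32.41% and 11.07% for Foxp4-201 and 12.47% and 40.85% for Foxp4-202. Foxp4-204, present in both, held 32.32% and 12.27%, and Foxp4-203 held 0% and 30.15%. All 4 are coding transcripts that hold the recognition helix. Foxo1 and Foxk1 have 1 transcript each.

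**Figure D4:**
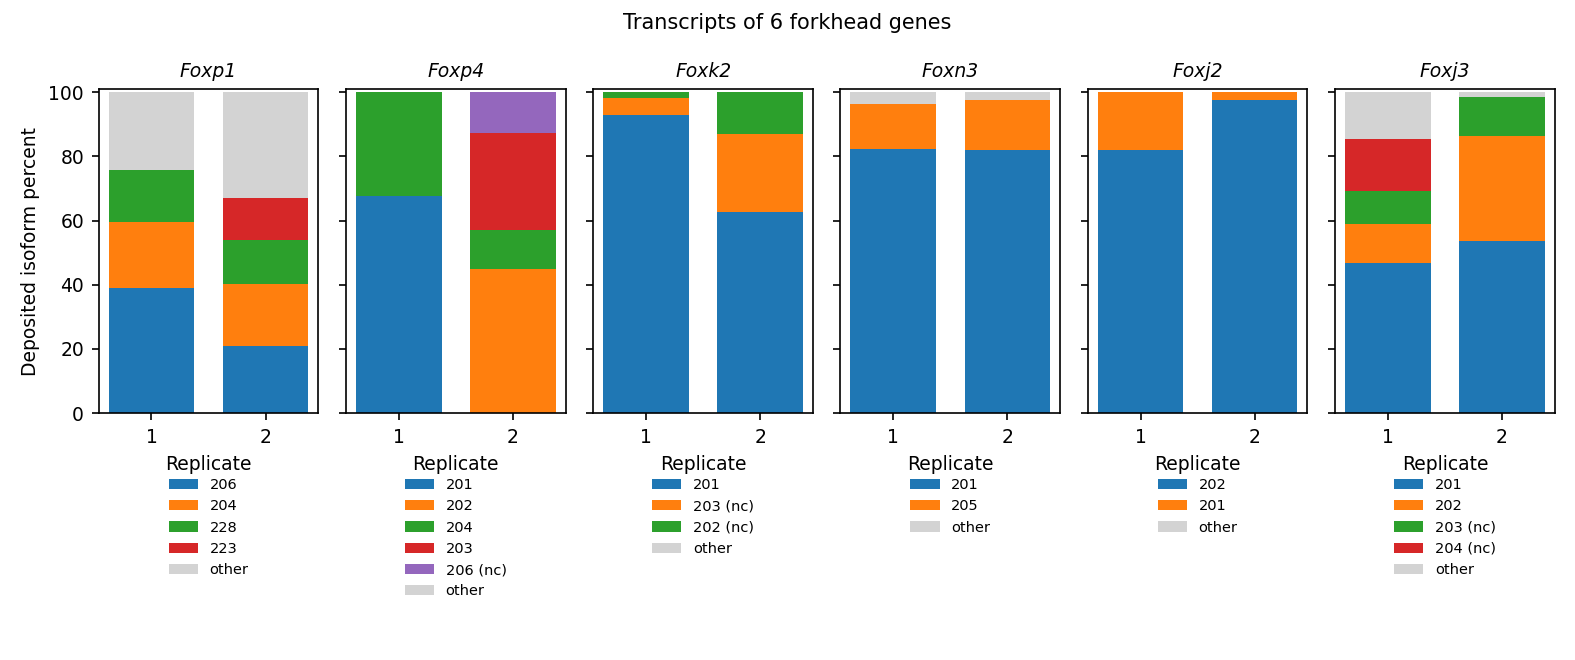
Deposited isoform percent of the transcripts of 6 members in each replicate, stacked to 100, with noncoding transcripts marked nc and the remainder in grey. Foxn3 keeps its makeup, the 2 noncoding transcripts of Foxk2 take a larger share in replicate 2, and Foxp4 changes its leading transcript.

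Transcripts that encode the recognition helix made up 80.6% and 58.5% of Foxp1 TPM, 92.9% and 62.8% of Foxk2, and 66.5% and 86.3% of Foxj3. In Foxo3 they made up 99.5% and 97.0%, in Foxn3 96.4% and 97.4%, and in Foxp4 100% and 87.4%. The other 4 members had no TPM outside such transcripts.

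Among the 34 other forkhead genes only Foxn2 (6.05 and 7.02 TPM), a close relative of Foxn3, and Foxm1 (1.87 and 2.75), a driver of mitotic genes, were detected, and 21 had no count in either library. Because the members were chosen with earlier results of these data known, their contrast with these genes is not independent of the data. The tally depended on the threshold. On TPM rescaled over protein-coding genes all 10 members and 4 other forkhead genes reached 1, as did 11274 protein-coding genes. At 10 counts in both libraries 10 members and 5 others did, as did 12093 protein-coding genes, beside 9443 at 1 TPM.

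The pathway around FOXO was broadly present, on lists chosen with earlier results of these data known. Of 24 genes of PI3K and AKT input 21 were detected, with a median of 6.45 and 6.77 TPM beside 0.51 and 0.53 over all protein-coding genes and 5.84 and 7.16 over detected ones. Pik3r1, a regulatory subunit of PI3K, was at 30.25 and 34.13 TPM, and Inpp5d, the SHIP1 phosphatase of blood cells, at 21.42 and 23.24, each above Foxo3 in both libraries. The lowest were Pik3cb (0.85 and 0.86) and the insulin receptor substrate Irs1 (0.01 in each). No gene of this list was apart between the replicates. For this list and those below, 44% of all protein-coding genes were detected. Of those with a mean of at least 1 TPM, 8.61% were apart, so the few genes named as apart are no excess.

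Genes whose proteins modify or hold FOXO were higher. Of 27 matched genes 25 were detected, at a median of 9.44 and 15.34 TPM. The 14-3-3 genes Ywhaz (79.87 and 107.1), Ywhae (58.5 and 74.56) and Ywhaq (39.68 and 50.36) led with the nuclear exporter Xpo1 (32.98 and 53.95), while Sfn, also of the 14-3-3 family (1.29 and 0.69), and Prkaa2 (0.28 and 0.40) were lowest. Kat2b, an acetyltransferase, was the 1 gene apart, at 7.95 and 19.97 TPM.

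Of 51 genes commonly cited as FOXO targets 39 were detected, at a median of 4.63 and 4.67 TPM. The antioxidant gene Gpx1 was highest (184.02 and 146.58), followed by Txnip (77.76 and 67.3), the peroxiredoxin Prdx5 (65.53 and 56.66) and Klf6 (40.82 and 57.43). G6pc and Pck1, of liver glucose output, and Trim63, of muscle wasting, had no count in either library. Prdx3 (10.68 and 24.94) and the cell cycle inhibitor Cdkn2c (4.2 and 10.2) were apart, both higher in replicate 2.

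Partners of the other families were detected at similar shares. Of 20 FOXP partners 17 were, led by the NuRD subunits Chd4 (80.87 and 122.54), Hdac2 (29.21 and 42.59) and Mta2 (23.9 and 34.05) and the corepressor Ctbp1 (18.16 and 24.33); Foxp2 (0.06 and 0) and Nkx2-1 (no count) were lowest, and Mbd3 (6.61 and 18.33) was apart. Of 19 FOXK partners 17 were, led by Ogt (28.06 and 23.3), Sin3a (21.58 and 24.67), Sin3b (17.39 and 23.07) and Hdac1 (17.05 and 21.56), with Dvl3 (0.76 and 0.64) and Asxl3 (no count) lowest. Sin3a and Sin3b each exceeded both FOXK members in each library.

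**Figure D5:**
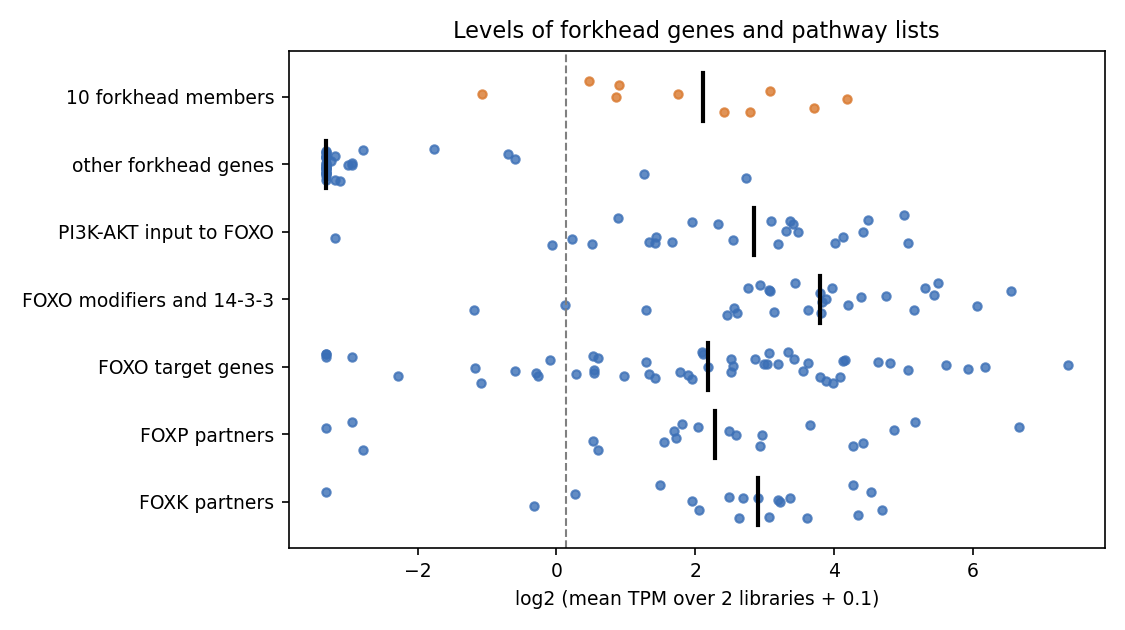
Mean TPM over the 2 libraries on a log2 scale with 0.1 added, for each gene of the 10 members (orange), the other forkhead genes and 5 pathway lists (blue); black bars are list medians and the dashed line marks 1 TPM. Most other forkhead genes sit at the left edge, while most genes of the 5 pathway lists lie to the right of the dashed line.

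The genes nearest to Foxo3 in level over the 2 libraries were Atraid (11.91 and 14.06 TPM), Hexa (12.17 and 13.83) and Sft2d2 (11.83 and 14.02). Nearest to Foxp1 were Tmbim4, Coro1c and Sord, and nearest to Foxk1 were Spns1, Fbxl17 and Yes1. With 2 libraries such likeness is common: 47 protein-coding genes lay within 0.1 of Foxo3 on the log2 scale and 24 within 0.1 of Foxp1.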

How the data were processed

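The deposited gene and transcript tables hold, per the file headers, estimated counts (expected counts), TPM, FPKM, interval bounds and posterior SDs (deposited as scores with no stated level), and isoform percent, each transcript's part of its gene's TPM. The authors quantified on GENCODE M4 and mm10, per the deposited notes; the sources used here name no aligner or counter. TPM deposited by the authors was used as the main level, FPKM was not.

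Names, positions and coding sequences came from GENCODE M21 (GRCm38), matched by identifier for 42462 of 43346 genes. Of 74 member transcripts, 70 kept their length. Foxn3-201, the leading transcript of Foxn3, did not (2803 nt as quantified, 7705 nt in M21). Promoters came from RefSeq. Log2 ratios of TPM, and the folds taken from them, used TPM + 0.1. A pair was ordered when both libraries gave 1 direction with non-overlapping intervals. A gene was apart between replicates when its mean was at least 1 TPM, the fold above 2 and the intervals separate. For scaling, estimated counts were rounded and given TMM factors (edgeR 4.0.16) or size factors (DESeq2 1.42.0, R 4.3.3); other steps used Python 3.11.15. The calls were tested on simulated data.

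Named were all members, transcripts of at least 10% in both libraries, detected forkhead genes, the 4 highest and 2 lowest of each list, and the 3 genes nearest to Foxo3, Foxp1 and Foxk1. Some items that this rule names are not reported here. Other transcripts, genes apart between replicates and overlapping genes were named after their values were seen. Members and lists were chosen with earlier results of these data known. Alternatives were other scales, pseudocounts, thresholds and each library alone.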

Additional observations from a re-analysis of the deposited data

How the results depend on the processing

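No paired analysis was possible because there was only 1 group. The span from the highest to the lowest member, taken without the added 0.1, was 5.59 on the log2 scale. With 0.1 added, the same pair, Foxp1 over Foxo1, gave 5.24. Without it, the span was 5.66 with posterior means and 5.28 on transcripts of at least 1000 nt. It was 4.77 on CPM and 5.12 on helix-bearing transcripts, and on these 2 scales Foxo3 was highest. Foxp1 over Foxo3, 0.43 on TPM, reversed to -0.26 on CPM and -0.079 on helix-bearing transcripts, and Foxo4 over Foxk1, 0.83 on TPM, to -0.43 on CPM. The 1 member apart between replicates, Foxk2, became 0 with a pseudocount of 1, TPM rescaled over protein-coding genes, TMM or DESeq2 factors, or transcripts of at least 1000 nt, and 2 (with Foxp1) at 1.5-fold. Protein-coding genes apart, 852, numbered 484 with a pseudocount of 1, 2885 at 1.5-fold, and 1535 and 1660 with a lower or no TPM minimum. On fold alone, without the interval rule, they numbered 474 on long transcripts and 1521 after rescaling, where the minimum applied to rescaled TPM. With TMM and DESeq2 factors they numbered 1916 and 1914, also on fold alone, with a minimum mean of 10 scaled counts. The counts on fold alone thus differ from 852 in the rule as well as the scale. At 5 TPM 4 members were detected in place of 9, and 1 other forkhead gene in place of 2. Protein-coding genes detected at that threshold numbered 5093 in place of 9443. With either library alone 42 pairs were ordered. Of 314 alternative values, 238 stayed within a set tolerance of the main value, 73 moved beyond it and these 3 reversed an order held on TPM. The tolerance was 1 replicate SD for levels, shares and ratios between genes, 0.29 for log2 ratios between the replicates, and 1.5-fold for counts of genes or pairs. A value within it could still change sign, as the Foxj3 ratio between the replicates did on long transcripts (-0.18 to 0.10). In all 20 of 182 log2 values changed sign, 16 of them ratios between the replicates and 4 between genes; Foxn3 over Foxj3, not ordered on TPM, went from 0.29 to -0.44 on CPM. The settings on long and helix-bearing transcripts were added after seeing the data. The deposited intervals cover counting and assignment error only; with 2 replicates an SD is loose.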
